A study of Mus musculus with 9 samples.

Results

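In all, 8 genes of cholesterol synthesis, Hmgcs1, Idi1, Fdps, Fdft1, Sqle, Lss, Cyp51 and Insig1, were followed in the jejunum of single mice. A gene was taken when the symbol of an array probe, split where several symbols share a probe, was identical to its name, which gave 9 probes of 33012 and 8 genes of 15674. Idi1 had 2 probes and every other gene had 1. The RNA came from the jejunum, the middle section of the small intestine, of male mice of the outbred stock OF1, aged 7 weeks, and 1 mouse was hybridized per array, on 9 single-colour Applied Biosystems arrays read by chemiluminescence. The labels place the mice in generation 3 of a feeding trial, although the methods speak of purchased mice, and 3 mice received feed B (mice 7, 8 and 10), 3 feed K (mice 1, 3 and 4) and 3 feed G (mice 4, 8 and 11). The labels do not say what the letters stand for, and no feed is named as the control. The methods speak of a custom maize diet, without saying which feed it was. All mice lived under a light/dark cycle with free access to feed and water, except that the methods describe food, but no water, being taken away for a few hours in the light phase before sampling, and the time of day at which tissue was taken was not randomized over the feeds. Whether mice shared a litter or cage is not given, so p-values measure the spread between these mice only.

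Cells build cholesterol from acetyl-CoA by way of mevalonate, isoprenoid units, squalene and lanosterol. When membranes hold little sterol, the SREBP transcription factors leave the endoplasmic reticulum with their escort SCAP and raise the transcription of most enzymes of the route. The small intestine both takes up sterol from food and makes its own.

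Signals were quantile normalized over the 9 arrays and are given as log2 signal, so that a step of 1 is a doubling. The platform counts a probe as detected when its signal reaches 3 times the noise, and between 33.7% and 48.1% of the probes of an array did so. Hmgcs1, Idi1, Fdft1, Sqle, Cyp51 and Insig1 were detected on all 9 arrays, Fdps on 7 and Lss on 4. The level of one probe cannot be set against that of another, so genes were compared only by how they varied. All 5 matched enterocyte markers were detected on all 9 arrays, with a summed log2 signal of 20.8 to 21.6 on feed B, 21.2 to 21.5 on feed K and 21.0 to 21.3 on feed G, whereas neither of the 2 matched genes of the exocrine pancreas was detected on any array. In a whole tissue segment, fewer cells of a type and less RNA per cell cannot be told apart.

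The mice of different feeds overlapped in nearly all of the genes, and mouse 4 of feed K and mouse 11 of feed G stood at the top for most of the genes. Hmgcs1, the synthase that makes HMG-CoA at the entry of the route, had a log2 signal of 14.03, 14.28 and 14.52 in mice 7, 8 and 10 of feed B, of 14.42, 14.07 and 15.18 in mice 1, 3 and 4 of feed K, and of 13.95, 13.64 and 14.93 in mice 4, 8 and 11 of feed G. The highest and the lowest mouse differed 2.92-fold, and the 3 feeds overlapped. Idi1, the isomerase that converts isopentenyl diphosphate, had 12.19, 12.52 and 12.20 on feed B, 12.68, 12.16 and 12.75 on feed K, and 12.22, 11.92 and 12.42 on feed G. Its range was the narrowest of the 8 genes, 1.77-fold, and its feeds overlapped as well. The 2 Idi1 probes followed each other over the 9 mice with r = 0.868.

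Fdps, the synthase of farnesyl diphosphate, had a log2 signal of 8.93, 8.10 and 10.25 on feed B, 9.05, 9.32 and 10.43 on feed K, and 6.49, 9.12 and 10.76 on feed G. Mouse 8 of feed B and mouse 4 of feed G were below the detection threshold, and the 19.3-fold range of Fdps rests on the latter. Fdft1, the squalene synthase at the branch point to sterols, had 12.32, 12.45 and 12.71 on feed B, 11.97, 12.04 and 13.50 on feed K, and 11.96, 11.70 and 13.20 on feed G. On feeds K and G, 1 mouse lay far above the other 2, whereas the mice of feed B lay close together.

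Sqle, the squalene epoxidase, had a log2 signal of 12.37, 11.72 and 13.08 on feed B, 12.37, 12.14 and 13.08 on feed K, and 11.53, 11.80 and 13.25 on feed G. Cyp51, the cytochrome P450 that removes a methyl group from lanosterol, had 11.48, 10.90 and 11.88 on feed B, 11.32, 11.14 and 11.87 on feed K, and 10.52, 10.88 and 12.47 on feed G. Both genes had 1 high mouse on each feed, mouse 10 on feed B, mouse 4 on feed K and mouse 11 on feed G. Lss, the lanosterol synthase between these enzymes, had 8.46 and 7.99 in mice 7 and 10 of feed B, while the spot of mouse 8 had failed and was left out. Lss had 6.34, 7.43 and 8.12 on feed K and 7.19, 5.77 and 6.89 on feed G. It was detected in 2 mice of feed B, 2 of feed K and none of feed G, and only feeds B and G did not overlap. Insig1 is no enzyme but the protein that holds SCAP and SREBP in the endoplasmic reticulum when sterol is plentiful, and it is itself a target of SREBP. Its log2 signal was 12.45, 12.72 and 12.61 on feed B, 12.43, 12.77 and 13.45 on feed K, and 12.74, 11.85 and 13.54 on feed G. The mice of feed B lay within the range of those of feed G.

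**Figure D1:**
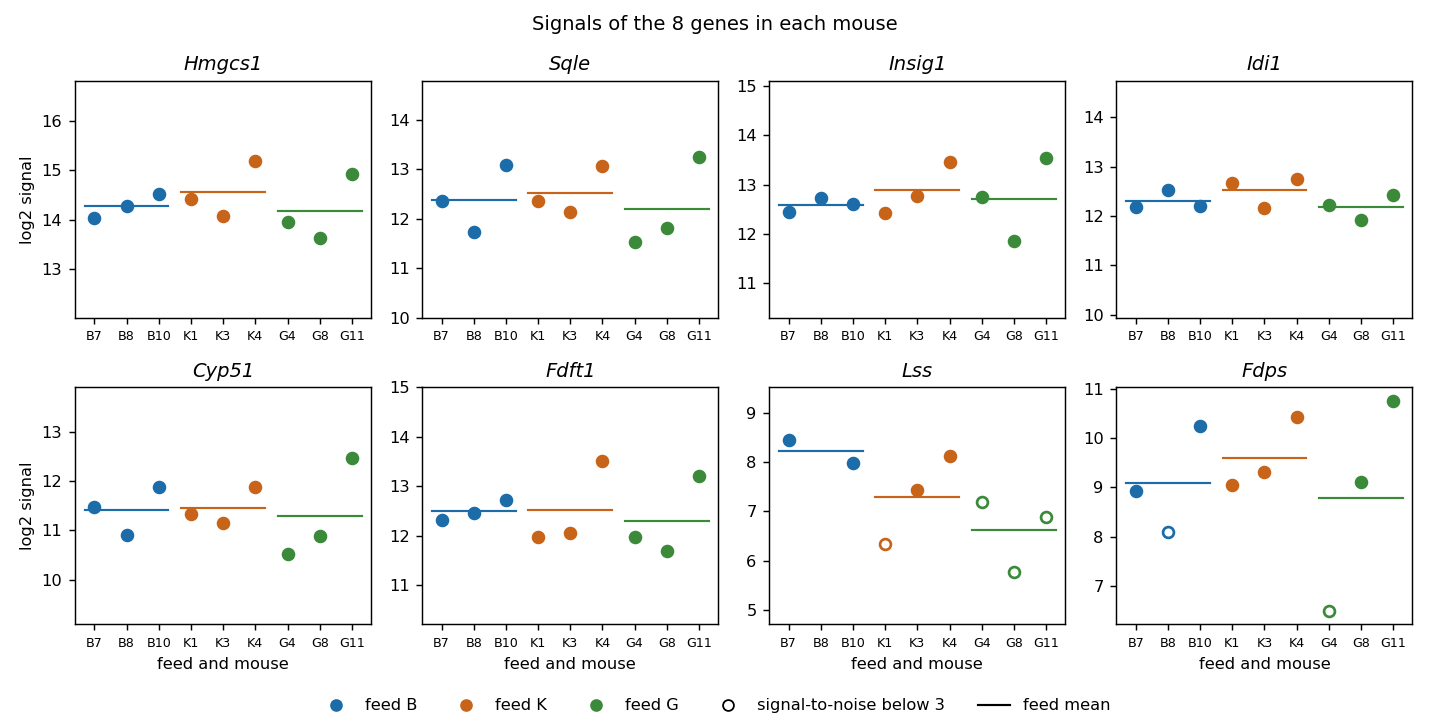
Log2 signal of each of the 8 genes (vertical axis, 4.8 log2 units in every panel) in each of the 9 mice (horizontal axis, feed letter and mouse number). Points are mice coloured by feed, open points were below a signal-to-noise ratio of 3, bars are feed means, and the failed Lss spot of mouse 8 of feed B is left out. Mouse 4 of feed K and mouse 11 of feed G are high in most panels, and the feeds overlap except for Lss on feeds B and G.

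For 7 of the 8 genes the highest mouse was mouse 4 of feed K or mouse 11 of feed G, and Lss, highest in mouse 7 of feed B, was the exception. All 8 genes were lowest in mouse 4 or mouse 8 of feed G, mice on the same feed as mouse 11. Mouse 4 of feed K was above the mean of the gene for 8 of 8 genes, mouse 11 of feed G for 7 of 8, mouse 4 of feed G for 1 of 8 and mouse 8 of feed G for 0 of 8. Among the 6 genes detected on all arrays, the SD of log2 signal over the mice was 0.49 for Hmgcs1, 0.64 for Sqle, 0.52 for Insig1, 0.61 for Cyp51, 0.61 for Fdft1 and 0.27 for Idi1. Their median SD was 0.56, larger than in 88.7% of the 5887 genes that every array detected, whose median was 0.29, whereas the SD of Idi1 was larger than that of 43.6%. Idi1 was averaged over 2 probes, whose own SDs were 0.34 for the brighter and 0.21 for the dimmer, while the other genes had 1 probe.

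None of the 8 genes differed between the feeds beyond the spread between mice. Of the 9653 genes detected on at least 3 arrays, all 8 included, the F test over the 3 feeds (limma, Benjamini-Hochberg adjustment over all genes tested, threshold 0.05) called 0 genes, which is 0% of them, and 0 of the 8. At an unadjusted p below 0.05, it passed 518 genes or 5.37%, and again 0 of the 8. The adjusted p of the 8 genes lay between 0.903 and 0.995 in the limma F test. An unmoderated F test called 1 gene of 9556 and an exact permutation of F over the 280 divisions of the mice into 3 groups of 3 called 0, with none of the 7 genes that had a value in every mouse. Lss, with its failed spot, was not in these tests. The exact permutation cannot go below p = 0.00357. Taken one pair of feeds at a time, limma also called 0% of the genes in each, and passed 6.31% at an unadjusted p below 0.05 for K against B, 5.74% for G against B and 4.54% for G against K, with 0, 1 and 0 of the 8 genes.

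The intervals of the differences were wide. For Hmgcs1 the log2 difference of feed K minus feed B was 0.28, with a 95% confidence interval from -0.63 to 1.19, and that of feed G minus feed K was -0.38, from -1.29 to 0.52. For Sqle, feed G minus feed K gave a log2 difference of -0.33, with an interval from -1.53 to 0.87. The interval was narrowest for Idi1, whose log2 difference of feed G minus feed K was -0.34, from -0.87 to 0.20, and widest for Fdps, at -0.81, from -3.16 to 1.54. Feed G was below feed K in the mean of all 8 genes, by 0.15 to 0.81 on the log2 scale, and 0 of these differences passed. The same comparison over all 9653 genes had 4740 genes higher and 4913 lower on feed G, with a median of -0.01. The 8 genes varied together over the mice, as given below, so they do not count as 8 independent directions. In other lists, 8 of 8 fatty acid synthesis genes and 3 of 11 clock genes tested were lower on feed G.

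Lss had the lowest p among the 8 genes. On feed B its mean log2 signal was 8.22 ± 0.33 (SD, n = 2). On feed K it was 7.30 ± 0.90 (SD, n = 3). On feed G, where no mouse reached the detection threshold, it was 6.62 ± 0.75 (SD, n = 3). Mouse 4 of feed G came close to that threshold of 3, at a signal-to-noise ratio of 2.86. With the failed spot left out, the mean signal on feed B was at least 3.04-fold the level read on feed G, with an unadjusted p of 0.0306 and an adjusted p of 0.841 in limma. It is a bound only in that Lss was not detected on feed G, and it takes no account of the spread between mice. The log2 difference of feed G minus feed B was -1.61 (SE 0.60). It shrank to -0.63 with the failed spot of mouse 8 of feed B kept. Without the spots below a signal-to-noise ratio of 1, it shrank to -0.95. The fold thus did not hold with either change. Over all settings run, the log2 difference lay between -1.88 and -0.63, so the size of the fold depended on the setting.

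The question of whether the genes rose and fell together was put to each of the 28 pairs, with Pearson's r of log2 signal over the mice, a two-sided exact permutation test and adjustment over the pairs. The r was above 0 for all 28 pairs, with a median of 0.622. It was 0.7 or more for 11 pairs, and the same number had an adjusted p below 0.05 in the exact permutation test. Among the 15 pairs of the 6 genes detected on all arrays, the median r was 0.793 and 9 reached 0.7. Over all 17325441 pairs of those 5887 genes, the median r was 0.0231, and 4.05% reached 0.7. The points of every pair share the array and its normalization, as do those of all other pairs of genes.

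Sqle and Cyp51 were the closest pair, with r = 0.972 (n = 9, exact permutation p = 1.38e-05, adjusted p = 0.000386) and Spearman's rho = 0.983 (exact p = 4.96e-05, adjusted p = 0.00139). Without the 2 mice farthest from the median of Sqle, r was 0.989. In every pair that median was of the gene named first in the order Hmgcs1, Sqle, Insig1, Idi1, Cyp51, Fdft1, Lss, Fdps. The mice left out can therefore differ between pairs. Fdps joined both enzymes, with r = 0.894 to Sqle (n = 9, exact permutation p = 0.000413, adjusted p = 0.00448) and r = 0.892 to Cyp51 (n = 9, exact permutation p = 0.00132, adjusted p = 0.00924). Their rho was 0.833 (exact permutation p = 0.00827) and 0.783 (exact permutation p = 0.0172), and r without the 2 farthest mice was 0.895 and 0.839. Hmgcs1 and Fdft1 formed the other close pair, with r = 0.930 (n = 9, exact permutation p = 0.000479, adjusted p = 0.00448), rho = 0.883 (exact permutation p = 0.00308) and r = 0.736 without the 2 farthest mice. Insig1 varied with these, at r = 0.857 to Fdft1 (n = 9, exact permutation p = 0.00336, adjusted p = 0.0188) and r = 0.854 to Hmgcs1 (n = 9, exact permutation p = 0.00451, adjusted p = 0.0211). Their rho was 0.650 (exact permutation p = 0.0666) and 0.567 (exact permutation p = 0.121). Without the 2 mice farthest from the median of Insig1, r with Fdft1 was 0.781. Without the 2 farthest from the median of Hmgcs1, r of Insig1 with Hmgcs1 was 0.546. With mouse 4 of feed K and mouse 11 of feed G left out of both pairs, r was 0.522 with Fdft1 and 0.546 with Hmgcs1. Both pairs thus rested in part on those mice. The adjusted p of Spearman's rho was below 0.05 for 2 of the 28 pairs, Sqle with Cyp51 and Hmgcs1 with Fdft1.

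Sqle, Cyp51 and Fdps, and Hmgcs1, Fdft1 and Insig1, are 2 groups read from these same r values. Across the 2 groups Pearson's r was lower than within them. Hmgcs1 passed with Sqle at r = 0.828 (n = 9, exact permutation, adjusted p = 0.0257) and with Cyp51 at r = 0.793 (n = 9, exact permutation, adjusted p = 0.0302), and Fdft1 passed with Sqle at r = 0.813 and with Cyp51 at r = 0.802, both with an adjusted p of 0.0282 in the exact permutation test. In these 4 pairs rho was 0.733 to 0.817 (exact permutation p = 0.0108 to 0.0311), and r without the 2 farthest mice 0.634 to 0.759. Their rho was above that of Insig1 with Fdft1 (0.650) and with Hmgcs1 (0.567), so the order by r did not hold for rho. Insig1 had r = 0.614 with Sqle and r = 0.631 with Cyp51, and neither passed. Idi1 passed with Hmgcs1 alone, at r = 0.774 (n = 9, exact permutation, adjusted p = 0.0384) and rho = 0.717 (exact permutation p = 0.0369), and had r = 0.342 with Cyp51 and r = 0.377 with Sqle. None of the 7 pairs of Lss passed, at r from 0.163 with Fdps to 0.527 with Fdft1 over 8 mice, and 4 of these mice were below the detection threshold for Lss.

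**Figure D2:**
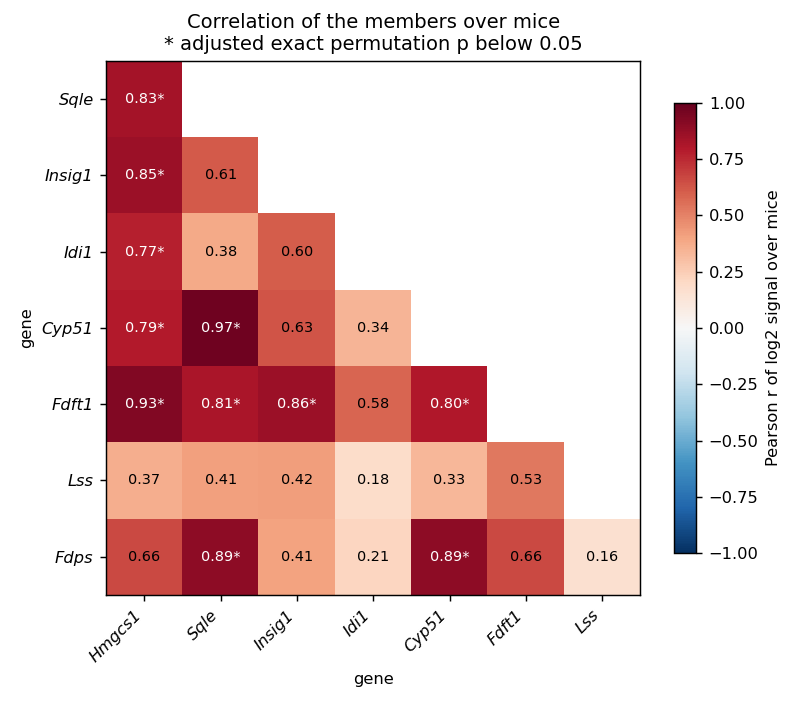
Pearson r of log2 signal over the mice (colour and number, 9 mice, 8 for Lss) for the 28 pairs of the 8 genes. Stars mark the 11 pairs with an adjusted exact permutation p below 0.05, and r runs from 0.16 for Lss with Fdps to 0.97 for Sqle with Cyp51.

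**Figure D3:**
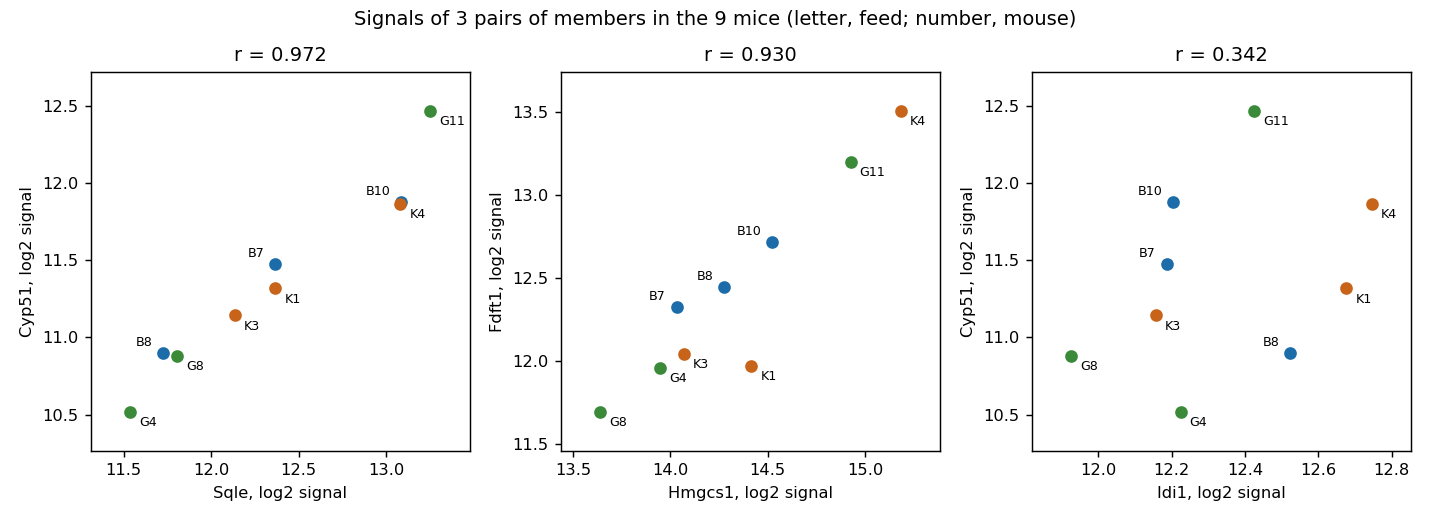
Log2 signal of Sqle against Cyp51, Hmgcs1 against Fdft1 and Idi1 against Cyp51, with 1 point per mouse, coloured by feed (blue B, orange K, green G) and marked with feed letter and mouse number. Points of all 3 feeds lie close to 1 line in the left panel (r = 0.972) and in the middle panel (r = 0.930), and are scattered in the right panel (r = 0.342).

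The relation was seen within the feeds. With the feed mean of each gene subtracted, the median r of the 28 pairs was 0.637 and 12 reached 0.7, while over all pairs of genes 7.19% did so. Sqle and Cyp51 then had r = 0.978 and Hmgcs1 and Fdft1 r = 0.958. No pair passed the adjustment in the exact permutation test within feeds, which allows 216 orders of the mice and no p below 0.00463. At an unadjusted p below 0.05, 9 of the 28 pairs passed this within-feed exact permutation test.

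The relation was looser without mouse 4 of feed K and mouse 11 of feed G. Without both mice, a choice made after seeing the data, the median r fell from 0.622 to 0.505 over the 28 pairs and from 0.793 to 0.546 over the 15 pairs, 6 pairs reached 0.7, and 25 of 28 were above 0. Sqle and Cyp51 still had r = 0.980 and were the only pair with an adjusted p below 0.05 in the exact permutation test (n = 7, adjusted p = 0.0167). Cyp51 and Fdps had r = 0.849 and Sqle and Fdps 0.819 without both mice, and Hmgcs1 and Fdft1 had 0.736. Insig1 went from 0.631 to 0.015 with Cyp51 and from 0.614 to 0.051 with Sqle. With 1 mouse left out at a time, the number of pairs with an adjusted p below 0.05 in the exact permutation test was 6 without mouse 3 of feed K, 5 without mouse 4 of feed K, 6 without mouse 4 of feed G, 4 without mouse 8 of feed G and 4 without mouse 11 of feed G. It was between 9 and 13 without any other mouse.

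**Figure D4:**
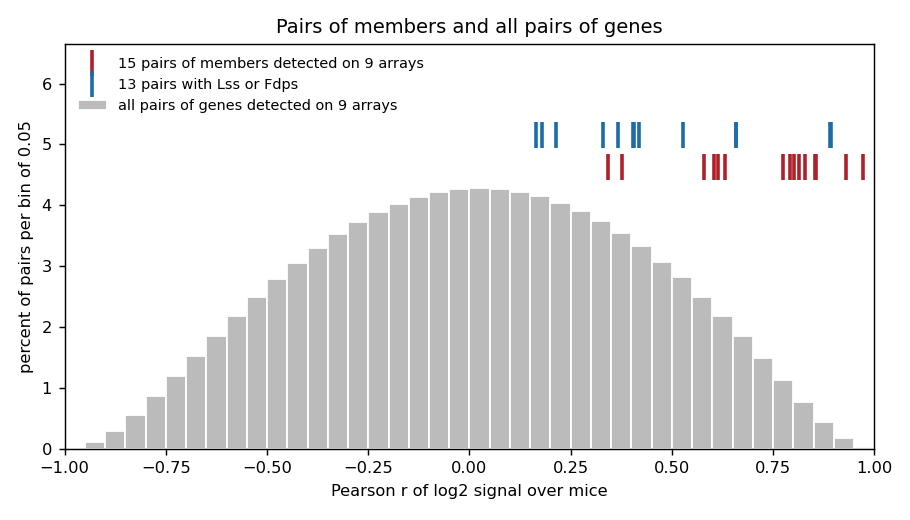
Distribution of Pearson r over the 17325441 pairs of the 5887 genes detected on all arrays (grey bars, percent of pairs in bins of r), with a red tick for each of the 15 pairs of the 6 genes detected on all arrays and a blue tick for each of the 13 pairs with Lss or Fdps. The grey distribution centres near 0 (median 0.0231), whereas all ticks lie above 0 and 9 of the 15 red ones at 0.7 or more.

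To look for genes of the same pattern, each member's log2 signal was standardized over the mice and averaged to a profile. The profile stood at 1.27 in mouse 4 of feed K and 1.04 in mouse 11 of feed G, at 0.46 in mouse 10 of feed B, and at -0.85 and -1.16 in mice 4 and 8 of feed G. The other 4 mice lay between -0.29 and -0.08. Of the 5881 other genes detected on all arrays, 157 or 2.67% had r of 0.7 or more with it. The 10 closest were led by a probe shared by Scd2 and Scd3, stearoyl-CoA desaturases of fatty acid synthesis, at r = 0.954. Next came Pmvk, the phosphomevalonate kinase, at 0.953, and Hsd17b7, a ketoreductase of the sterol route, at 0.944. Mvd, the mevalonate diphosphate decarboxylase, had 0.924, and Sc4mol (now Msmo1), the sterol methyl oxidase, 0.919. Dibd1 (0.930), Spg21 (0.926), Tuba4 (0.915) and Npdc1 (0.915) were also among the 10. In Mvd the log2 signal ran from 9.42 in mouse 4 of feed G to 11.39 in mouse 4 of feed K, and in the probe of Scd2 and Scd3 from 10.68 in mouse 8 of feed G to 13.66 in mouse 4 of feed K.

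Of 16 further enzymes of the pathway, 14 were matched to the arrays and 12 were detected on all of them. Their median r with the profile was 0.576, against 0.0121 over the 5881 genes, and 5 of the 12, or 41.7%, reached 0.7. These were Acat2, which condenses acetyl-CoA, at 0.860, and Pmvk, Mvd, Msmo1 and Hsd17b7 above. Ggps1 (0.588), Nsdhl (0.565), Ebp (0.528) and Sc5d (0.478) came next. Dhcr7 (0.054), a reductase that acts late in the route, and Lbr (-0.485), a sterol reductase of the nuclear envelope, came last. In the F test over the feeds, 0 of the 13 enzymes tested had a limma adjusted p below 0.05, and 1 had an unadjusted p below 0.05, Mvk, the mevalonate kinase, at 0.0407, which was detected on 4 arrays.

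Among 7 regulators and other targets of SREBP detected on all arrays, the median r was 0.520. Fads2, a fatty acid desaturase, had 0.666 and Stard4, a sterol carrier, 0.645, whereas Srebf1, which encodes an SREBP, had 0.086 and Scap 0.173. Insig2, the relative of Insig1, had 0.520 and an unadjusted p of 0.0422 in the limma F test (adjusted p = 0.894). Of the 11 genes of this list tested, it alone had an unadjusted p below 0.05 in that test, where 5.37% of all genes did. The 6 fatty acid synthesis genes had a median of 0.572, from 0.259 for Scd1 to 0.954 for the probe of Scd2 and Scd3, and Me1, the malic enzyme that supplies NADPH (Mod1 on the array), had 0.896. The 7 sterol transport genes had a median of -0.166, from -0.468 for Abca1, a cholesterol exporter, to 0.078 for Npc1l1, the cholesterol uptake protein of the brush border. All these r values are descriptions over the same 9 mice from which the profile was made.

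**Figure D5:**
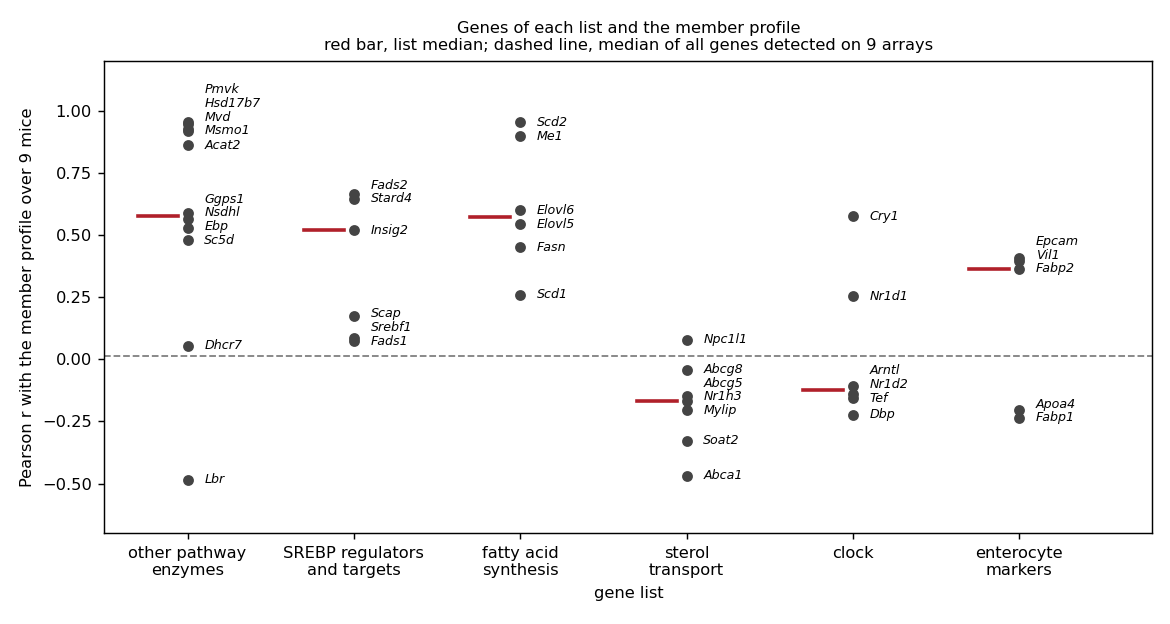
Pearson r, over the 9 mice, of genes detected on all arrays with the mean standardized profile of the 8 genes, by gene list (points are genes, red bars list medians, and the dashed line the median of 0.0121 over all 5881 other genes). Not every gene of a list is drawn. Pmvk, Hsd17b7, Mvd, Msmo1, Acat2, Me1 and the probe of Scd2 and Scd3 lie above 0.7, and 6 of the 7 sterol transport genes lie below 0.

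Measures of the arrays, of other cell types and of the clock were set beside the genes. Over 112 relations of the 8 genes with 14 such measures, 0 had an adjusted p below 0.05 and 4 an unadjusted p below 0.05 in the exact permutation test of r. The share of detected probes had r from -0.648 with Lss to 0.128 with Fdps. Summed enterocyte markers had r from -0.202 with Lss to 0.599 with Idi1. A marker sum held the genes with a value in every mouse. For the enteroendocrine markers these were 2 of 3 genes, since Cck had a failed spot in mice 4 and 8 of feed G, and r ran from -0.525 with Insig1 to 0.019 with Fdps. For the hepatocyte markers these were also 2 of 3 genes, since Alb had a failed spot in mouse 8 of feed B. Of these hepatocyte genes, Ttr was detected on 9 arrays and Serpina1a on 5. The 2 matched Paneth markers had r = -0.838 with Insig1 (n = 9, exact permutation p = 0.00406, adjusted p = 0.276). Summed B and plasma cell markers had r = -0.841 with Idi1 (n = 9, exact permutation p = 0.00493, adjusted p = 0.276), stromal markers r = -0.791 with Insig1 (exact permutation p = 0.0103, adjusted p = 0.385) and hepatocyte markers r = 0.679 with Fdps (exact permutation p = 0.0394, adjusted p = 0.965). In these 4 relations the size of rho was 0.817 to 0.833. Without the 2 mice farthest from the median of the marker sum, r was -0.883 for the Paneth, -0.678 for the B and plasma cell, -0.853 for the stromal and 0.561 for the hepatocyte markers. The part of these cell types in the results was not tested.

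Because the time of sampling was not randomized, the clock genes were read too. At an unadjusted p below 0.05 in the limma F test, 7 of the 11 clock genes tested passed, where 5.37% of all genes did, and 0 passed after adjustment. Dbp, a clock output gene, had a log2 signal of 10.56, 12.46 and 9.98 on feed B, 12.69, 13.14 and 13.57 on feed K, and 13.99, 13.46 and 12.73 on feed G. Every mouse of feed B was below every mouse of the other feeds. Feed and time of sampling cannot be told apart in this design. With the 8 genes, Dbp had r from -0.523 with Lss to 0.170 with Insig1, and Arntl, a core clock gene, from -0.472 with Insig1 to 0.374 with Lss. With feed means subtracted, r ran from -0.658 with Sqle to 0.524 with Lss for Dbp, and it was below 0 with all 8 genes for Arntl, from -0.309 with Fdps to -0.860 with Insig1. The 6 clock genes detected on all arrays had a median r of -0.122 with the profile.

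All 8 genes were looked up in the promoter table of RefSeq (mouse build GRCm38.p6), since SREBP and its partner NF-Y bind short elements upstream of many sterol genes. Hmgcs1, Insig1, Idi1, Cyp51 and Lss matched, 5 of the 8. The 250 bases before the transcript start were searched on both strands for CACNCCAC, a core of the sterol regulatory element, for CCAAT, the box of NF-Y, and for CACGTG, the E-box. The 4 promoters of genes detected on all arrays are shown 5′ to 3′ on the strand of the gene, with matches to CACNCCAC and CCAAT, or to their reverse complements, in capitals.
Hmgcs1, chr13:119690101-119690350, plus strand: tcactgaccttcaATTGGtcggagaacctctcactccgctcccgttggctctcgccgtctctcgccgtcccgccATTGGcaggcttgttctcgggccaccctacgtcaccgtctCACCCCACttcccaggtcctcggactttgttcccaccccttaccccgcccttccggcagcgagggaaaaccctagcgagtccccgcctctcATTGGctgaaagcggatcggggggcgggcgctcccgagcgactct
Insig1, chr5:28071162-28071411, plus strand: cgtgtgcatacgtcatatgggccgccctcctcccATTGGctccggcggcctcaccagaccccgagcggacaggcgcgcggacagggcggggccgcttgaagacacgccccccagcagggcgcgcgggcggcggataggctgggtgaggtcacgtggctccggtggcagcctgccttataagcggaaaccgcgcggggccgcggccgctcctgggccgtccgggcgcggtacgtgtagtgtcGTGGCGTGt
Idi1, chr13:8885356-8885605, plus strand: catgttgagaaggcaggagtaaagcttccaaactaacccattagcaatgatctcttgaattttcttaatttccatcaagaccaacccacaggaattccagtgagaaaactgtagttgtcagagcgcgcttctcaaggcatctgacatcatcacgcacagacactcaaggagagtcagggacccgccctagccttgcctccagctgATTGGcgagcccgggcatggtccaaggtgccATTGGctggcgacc
Cyp51, chr5:4104698-4104947, minus strand: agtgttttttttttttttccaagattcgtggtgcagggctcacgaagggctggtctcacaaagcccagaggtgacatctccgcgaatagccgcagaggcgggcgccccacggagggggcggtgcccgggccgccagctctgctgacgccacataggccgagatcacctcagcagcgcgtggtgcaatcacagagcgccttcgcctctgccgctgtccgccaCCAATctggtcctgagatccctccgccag

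CCAAT was found in 5 of the 5 promoters, against 33.8% of all 32851 promoters of this length and 12 of 17 promoters of the other pathway enzymes. Hmgcs1 held it at 3 places, the nearest 45 bases before the start, Idi1 at 2, and Insig1, Cyp51 and Lss at 1 each. CACNCCAC was found in Hmgcs1, 136 bases before the start, and in Insig1, 9 bases before it on the other strand, in 5.29% of all promoters and in 1 of the 17 promoters of the other pathway enzymes. Hmgcs1 and Insig1 held both motifs, as did 1.60% of all promoters and 0 of those 17. CACGTG was found in Insig1, 101 bases before the start, and in 6.02% of all promoters. No match of one motif overlapped a match of another. Such a match describes the letters of the window and is no evidence of binding.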

How the data were processed

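Jejunal RNA of 1 mouse was measured on each of 9 arrays. For each spot the authors deposited a background-corrected, spatially normalized signal intensity, its SD, a signal-to-noise ratio score and a quality flag. The table of the whole series, also deposited by the authors, repeats the assay-normalized signal intensity (all 297108 values identical, column medians 1.06 to 1.53); it is linear and not centred, and what it was divided by is unknown. The submitters' processing notes name RMA.

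Spots with a flag above 5000 (432 to 1045 per array) were left out. Signals were quantile normalized with the arithmetic mean, log2 transformed and, for genes with several probes, averaged. At a signal-to-noise ratio below 1 the deposited signal equalled the SD of the spot within 0.011 (119010 spots), so low values are noise levels. Feeds were compared with limma 3.58.1 (lmFit and eBayes, under R 4.3.3). Genes entered when at least 3 arrays detected them, with Benjamini-Hochberg adjustment over all genes tested. For Lss, not detected on feed G, the fold is a lower bound: the mean of feed B against the mean, per array, of the higher of the lowest detected signal and the signal of the probe. The lowest detected signal did not raise that mean, so the bound equals the fold between the means of the 2 feeds. Correlations have two-sided exact permutation p-values. The other steps ran in Python 3.11.15 with scipy 1.17.1, numpy 2.4.6 and pandas 2.3.3, and fits were tested on simulated data. The number of arrays limits the precision.

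The genes named are the 8 members, lists of the other pathway enzymes, SREBP regulators and targets, fatty acid synthesis, sterol transport and clock genes, cell type markers, and the 10 genes closest to the profile. Some genes of these lists are counted in the list values but not reported here by name. Members and lists were chosen with earlier results of these data known. Alternatives tried were the series table, median scaling, the brightest probe, failed spots kept, a floor at percentile 5, other filters, other tests and measures, feed means subtracted, and mice left out.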

Additional observations from a re-analysis of the deposited data

How the results depend on the processing

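The number of members passing the F test over the feeds, and each of the 3 pairs of feeds, stayed at 0 under every alternative run, with adjusted p-values of the F test in limma between 0.422 and 0.999. The median r of the pairs, 28 in the main setting, moved by less than the SD of r over the pairs under each of the 21 alternatives. This median was taken over 15 pairs with only the genes detected on all arrays, and over 27 pairs without the spots below a signal-to-noise ratio of 1. With each mouse left out in turn it was 0.548 to 0.706, the number of pairs with an adjusted p below 0.05 in the exact permutation test was 4 to 13, and the number with r of 0.7 or more was 10 to 15. The number of pairs with an adjusted p below 0.05 fell from 11 to 0 with feed means subtracted, where the smallest possible p is 0.00463, to 2 with Spearman's rho, and to 1 without mouse 4 of feed K and mouse 11 of feed G, where 6 pairs had r of 0.7 or more and the median over the 15 pairs of genes detected on all arrays was 0.546. With median scaling it was 16. No single pair that passed changed sign. The cause of these differences was not tested.

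No paired analysis was possible because the labels link no mouse of a feed to a mouse of another feed. Slide or scan as a block was not run, since the files name no batch that divides the 9 arrays into groups of more than 1. With 3 mice a feed, smaller differences than the confidence intervals span could not be resolved.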
